A study of Homo sapiens with 4 samples.

Results

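CD166+ cells of SW1990 were compared with CD166+ cells of Panc-1, in order to see how far 2 human pancreatic cancer cell lines differ once both have been sorted for the same surface antigen. All genes that the annotation names and that were detected on either CD166+ array, at a detection p under 0.01, entered the comparison. They numbered 11119 of 20044 named genes, of which 8896 were detected on both arrays (80.0%), 931 on the SW1990 array only and 1292 on the Panc-1 array only. The rule used detection and no difference between the lines. Just inside the threshold lay ADAMTS6, with a best detection value of 0.00909, and just outside it ACSBG1, with 0.0104. The series holds 4 populations, CD166+ and CD166- cells of SW1990 and CD166+ and CD166- cells of Panc-1, separated with magnetic beads, with no drug or genetic change named for any of them. Total RNA of each population was hybridised to 1 Illumina bead array. No population has a second array, and nothing says that any was prepared more than once, so each value below is a single measurement and each difference between the lines is a fold between 2 arrays, with no test and no error across samples. The lines differ in origin and genome as well as in any behaviour of interest, and a single sort of each stands for the line.

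CD166, the product of ALCAM, is an adhesion molecule of the immunoglobulin superfamily that binds itself and CD6 on neighbouring cells, and it has been used to enrich tumour-initiating cells in several carcinomas. Pancreatic ductal carcinomas and the lines derived from them span a range from an epithelial, gland-forming state, marked by keratins, mucins and junction proteins, to a mesenchymal state marked by vimentin, matrix proteins and integrins. Lines sorted for CD166 can therefore share the sorted antigen and sit at different places in that range.

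The mean intensity was 413 on the SW1990 CD166+ array and 338 on the Panc-1 CD166+ array, and 9827 and 10188 named genes were detected on them. Signals below are background-corrected, quantile-normalized values on a linear scale after an offset of 16, which compresses the folds of dim genes. A gene not detected on 1 side was given the lowest detected signal of that array, 39.1 for SW1990 CD166+ and 37.4 for Panc-1 CD166+, or its own signal where higher, and its fold is then a lower bound. For 2075 genes with several probes detected on both arrays, the log2 folds of probes of the same gene had an SD of 0.42, which is the only measure of scatter these arrays offer, and in 9 genes probes of the same gene were over 2-fold apart in opposite directions. Across the 11640 genes detected on any array (genes are not independent replicates), the log2 signals of SW1990 CD166+ and Panc-1 CD166+ cells correlated with a Pearson r of 0.834. SW1990 CD166+ and SW1990 CD166- cells were no closer, at 0.827, whereas the 2 Panc-1 populations reached 0.989 and the SW1990 CD166- array correlated with the 2 Panc-1 arrays at 0.874 and 0.872. The SW1990 CD166+ array thus stood apart from the other 3 arrays, its own line included.

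A low signal of strong SW1990 CD166+ transcripts was present on the Panc-1 CD166+ array. Of probes with a signal over 1000 in SW1990 CD166+ cells, 47 were not detected in Panc-1 CD166- cells even at a detection p under 0.05, and 44 of these were nevertheless detected in Panc-1 CD166+ cells. The same share among probes dim in SW1990 CD166+ cells was not counted, so this count has no background beside it. Over all 47 probes, the Panc-1 CD166+ signal had a median of 3.01% of the SW1990 CD166+ signal (quartiles 2.34% and 3.24%). FOLR1, the GAGE genes, MUC16, KYNU, CDA and CDKN2A are among them, so for such genes the low level given for Panc-1 CD166+ cells was not seen in Panc-1 CD166- cells. The part of carried-over signal, of shared cells or of the sort in these low levels was not tested. With that share subtracted, 1487 genes were over 2-fold higher and 1658 lower in SW1990 CD166+ cells.

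Of the 11119 genes, 1429 were over 2-fold higher in SW1990 CD166+ cells than in Panc-1 CD166+ cells (12.9%) and 1577 were over 2-fold lower (14.2%), 27% together. Over 4-fold, 373 were higher (3.35%) and 493 lower (4.43%), 7.79% together, and over 10-fold 112 were higher (1.01%) and 170 lower (1.53%), 2.54% together. The median log2 fold was 0.01, and over the genes detected on both arrays the quartiles were −0.53 and 0.56. These shares, 12.9% and 14.2%, are the background for every list below, and each list is given by its members detected on either array, of those measured. The split depended on the scaling: 47.5% of the genes over 2-fold apart were higher in SW1990 CD166+ cells here, 64.8% after median scaling, which moved the median log2 fold of all genes to 0.21, and 34.7% in the authors' scaled table, where that median was −0.24.

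**Figure D1:**
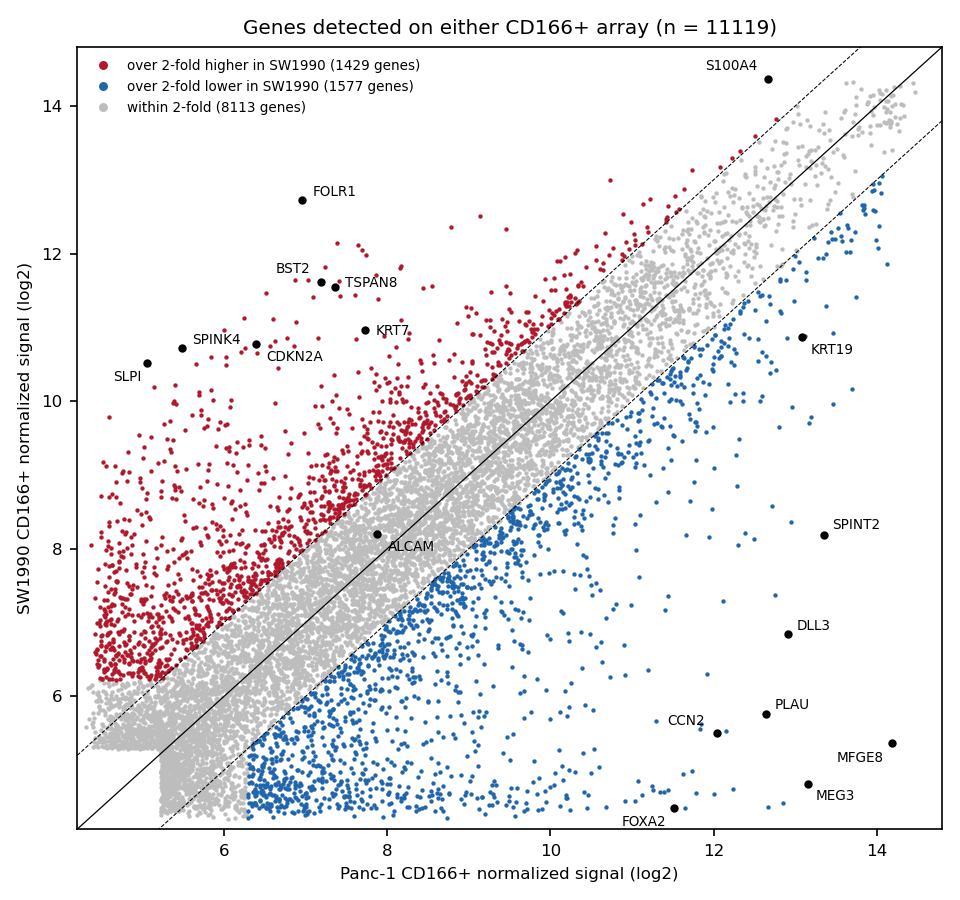
Normalized signals (log2) of the 11119 genes, SW1990 CD166+ cells on the vertical axis and Panc-1 CD166+ cells on the horizontal axis, each point 1 gene. Solid line, equal signal. Dashed lines, 2-fold. The 1429 red genes are over 2-fold higher and the 1577 blue genes over 2-fold lower in SW1990 CD166+ cells. Among genes detected on both arrays, FOLR1 lies farthest from the line on the higher side and MFGE8 on the lower side.

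The sorted antigen itself differed little. ALCAM had a signal of 293 in SW1990 CD166+ cells and 235 in Panc-1 CD166+ cells (log2 fold 0.32), and 47.3 and 44.3 in the CD166- cells of SW1990 and Panc-1, so in both lines the sorted fraction carried the higher ALCAM signal. The 3 marker genes of SW1990 CD166+ cells were all far higher than in Panc-1 CD166+ cells. The study listed all 3 as higher in CD166+ than in CD166- cells from these same arrays. Their high signals were thus known beforehand and are no independent support. FOLR1, the folate receptor alpha, had 6768 in SW1990 CD166+ cells and 124.2 in Panc-1 CD166+ cells, a 54.5-fold difference and the largest in this direction among genes detected on both arrays. TSPAN8, a tetraspanin linked to tumour cell motility, had 2995 and 163.8 in the same order (18.3-fold). KRT7, the ductal type II keratin, had 1991 and 212.2 (9.38-fold). None of the 3 marked the SW1990 line as a whole, since in SW1990 CD166- cells FOLR1 and TSPAN8 were not detected and KRT7 had only 58.9.

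Among other genes that the study followed up, BST2, an interferon-induced membrane protein that tethers viruses, had 3144 in SW1990 CD166+ cells and 146 in Panc-1 CD166+ cells. BMP7, a bone morphogenetic protein, and COL6A1, a collagen VI chain, were not detected in SW1990 CD166+ cells (22.8 and 25.7) and low in Panc-1 CD166+ cells (66.2 and 87.3), which makes BMP7 at least 1.69-fold and COL6A1 at least 2.24-fold lower in SW1990.

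Both populations carried ductal epithelial transcripts, with different keratins. KRT8 was equal, at 4257 in SW1990 CD166+ cells and 4176 in Panc-1 CD166+ cells. KRT19, a keratin of simple ductal epithelium, had 1862 in SW1990 CD166+ cells against 8679 in Panc-1 CD166+ cells. KRT16, a keratin of stressed and squamous epithelium, had 828 in SW1990 CD166+ cells and 38.4 in Panc-1 CD166+ cells. Of 15 measured keratins 8 were detected, 5 of them over 2-fold higher in SW1990 CD166+ cells (62.5%, against 12.9% of all compared genes), among them KRT80 (log2 fold 1.71), KRT18 (1.18) and KRT10 (1.16), and 2 lower (25%, against 14.2%). Their median log2 fold was 1.17. In CD166- cells 7 keratins were detected, 1 higher and 2 lower in SW1990 (median −0.49). EPCAM, an epithelial adhesion molecule, was similar, at 365 in SW1990 CD166+ and 293 in Panc-1 CD166+ cells. CDH1, the epithelial cadherin, was below detection in both, with signals of 35.4 and 23.4.

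Of 39 measured adhesion and junction genes 26 were detected, 9 over 2-fold higher and 4 lower in SW1990 CD166+ cells (median log2 fold 0.56, which was −0.050 in the scaled table). The higher ones included MAL2, a membrane protein of apical transport, detected in SW1990 CD166+ cells only (392, at least log2 3.39), CRB3, a polarity protein (265 against 37.5 in Panc-1 CD166+ cells), AP1M2, an epithelial clathrin adaptor (313 against 50.3), and DSG2, a desmosomal cadherin (1119 against 265). The strongest of the lower ones was SPINT2, an inhibitor of membrane serine proteases, at 290.1 in SW1990 CD166+ cells and 10473 in Panc-1 CD166+ cells, a 36.1-fold difference. CDCP1 (log2 fold −3.22) and CLDN1, a tight junction claudin (−2.53), were lower as well, so junction genes did not all lie on the side of SW1990. In CD166- cells 19 genes of the list were detected, 0 higher and 7 lower in SW1990 (median −0.66).

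Mucins and ductal surface glycoproteins lay almost wholly on the side of SW1990 CD166+ cells. Of 26 measured 10 were detected, 8 over 2-fold higher and 0 lower, and the median log2 fold was 2.52. MUC16, the CA-125 antigen, had 1021 in SW1990 CD166+ cells and 42.0 in Panc-1 CD166+ cells. MSLN, mesothelin, had 3029 and 373 in the same order. GCNT3, a mucin glycosyltransferase, was detected in SW1990 CD166+ cells only (580, at least 15.5-fold), and so was PSCA (301, at least 8.06-fold). MUC1 was high in both, at 2634 in SW1990 CD166+ cells and 958 in Panc-1 CD166+ cells, and LCN2, an iron-scavenging lipocalin, had 484 and 55.2. MUC13 (log2 fold 0.68) and MUC6 (−0.53) lay within 2-fold. In CD166- cells 6 genes of the list were detected, 0 higher and 2 lower in SW1990 (median −0.22).

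Among other genes with large folds toward SW1990 CD166+ cells, several encode secreted proteins or enzymes, and the GAGE genes, which lie in the same range, are described with the cancer-testis genes. SLPI, a secreted inhibitor of leukocyte protease, had 1472 there and was not detected in Panc-1 CD166+ cells (33.3, at least 39.4-fold), and its relative PI3 had 1166 and 35.1 (at least 31.2-fold). SPINK4, a Kazal-type protease inhibitor, had 1683 in SW1990 CD166+ cells and 44.7 in Panc-1 CD166+ cells (37.7-fold). SLC2A3, the glucose transporter GLUT3, had 1996 and 64.0 (31.2-fold), S100P had 2827 and 91.7 (30.8-fold), and PTGES, prostaglandin E synthase, had 1448 and 50.2 (28.8-fold). NNMT, nicotinamide N-methyltransferase, KYNU, kynureninase, and CDA, the cytidine deaminase that inactivates gemcitabine, were 27.2-fold, 23.9-fold and 23.8-fold higher. TMPRSS3, ANXA3, MIR99AHG and LHX2 were the next largest among genes detected only in SW1990 CD166+ cells, between log2 4.16 and 4.56 at the least.

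The genes lower in SW1990 CD166+ cells reached larger folds. MFGE8, a secreted integrin ligand that bridges dying cells to phagocytes, had 41.1 in SW1990 CD166+ cells and 18711 in Panc-1 CD166+ cells, a 455-fold difference and the largest among genes detected on both arrays. MEG3, an imprinted noncoding RNA, was not detected in SW1990 CD166+ cells and had 9106 in Panc-1 CD166+ cells (at least 233-fold lower). COL18A1, the collagen that releases endostatin (at least 166-fold), and MAGED1 (at least 123-fold) were also detected in Panc-1 CD166+ cells only. ANGPTL4, a lipoprotein lipase inhibitor, was lower by at least 189-fold on its probe with the highest mean signal. Another ANGPTL4 probe was detected on both arrays with a log2 fold of −2.37, and the remaining one had −1.56 or below. PLAU, urokinase, had 54.4 in SW1990 CD166+ cells and 6417 in Panc-1 CD166+ cells (118-fold lower). CD70, the TNF-family ligand of CD27, DLL3, an inhibitory Notch ligand, and ERRFI1, a feedback inhibitor of EGFR, were among the others, with log2 folds of −6.22, −6.07 and −5.38.

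Subtype programs of pancreatic cancer, drawn up for tumours, did not separate the 2 populations in 1 direction. Of 39 measured genes of the classical program 18 were detected, 7 over 2-fold higher and 3 lower in SW1990 CD166+ cells (median log2 fold 0.46, −0.030 in the scaled table), with SPINK4, S100P, TSPAN8 and ELF3 among the higher and AGR2 (−2.45), PLS1 (−1.85) and FOXQ1 (−1.47) the lower ones. Of 39 measured basal-like and quasimesenchymal genes 24 were detected, 12 higher and 7 lower (median 1.02). UCA1, a noncoding RNA (4.46), KRT7 and SLC2A3 led the higher ones, together with FGFBP1 (at least 3.01) and FAM83A (at least 2.98). NT5E, the ecto-nucleotidase CD73, was lower by at least 29.2-fold, and PHLDA1, CAV1 and AHNAK2 had log2 folds of −4.83, −3.07 and −2.17.

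Regulators of pancreatic lineage were split. FOXA2, a forkhead factor of endoderm, was not detected in SW1990 CD166+ cells and had 2930 in Panc-1 CD166+ cells (a log2 fold of −6.23 or below). SOX9, a ductal progenitor factor, was likewise detected in Panc-1 CD166+ cells only (646, at least 16.5-fold), and PDX1, a pancreatic homeobox factor, had 146 there. ELF3, an epithelial ETS factor (530), and FOXA1 (162) were detected in SW1990 CD166+ cells only. Of 28 measured regulators 13 were detected, 5 higher and 4 lower, with a median log2 fold of 0.61, which was −0.022 in the scaled table.

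**Figure D2:**
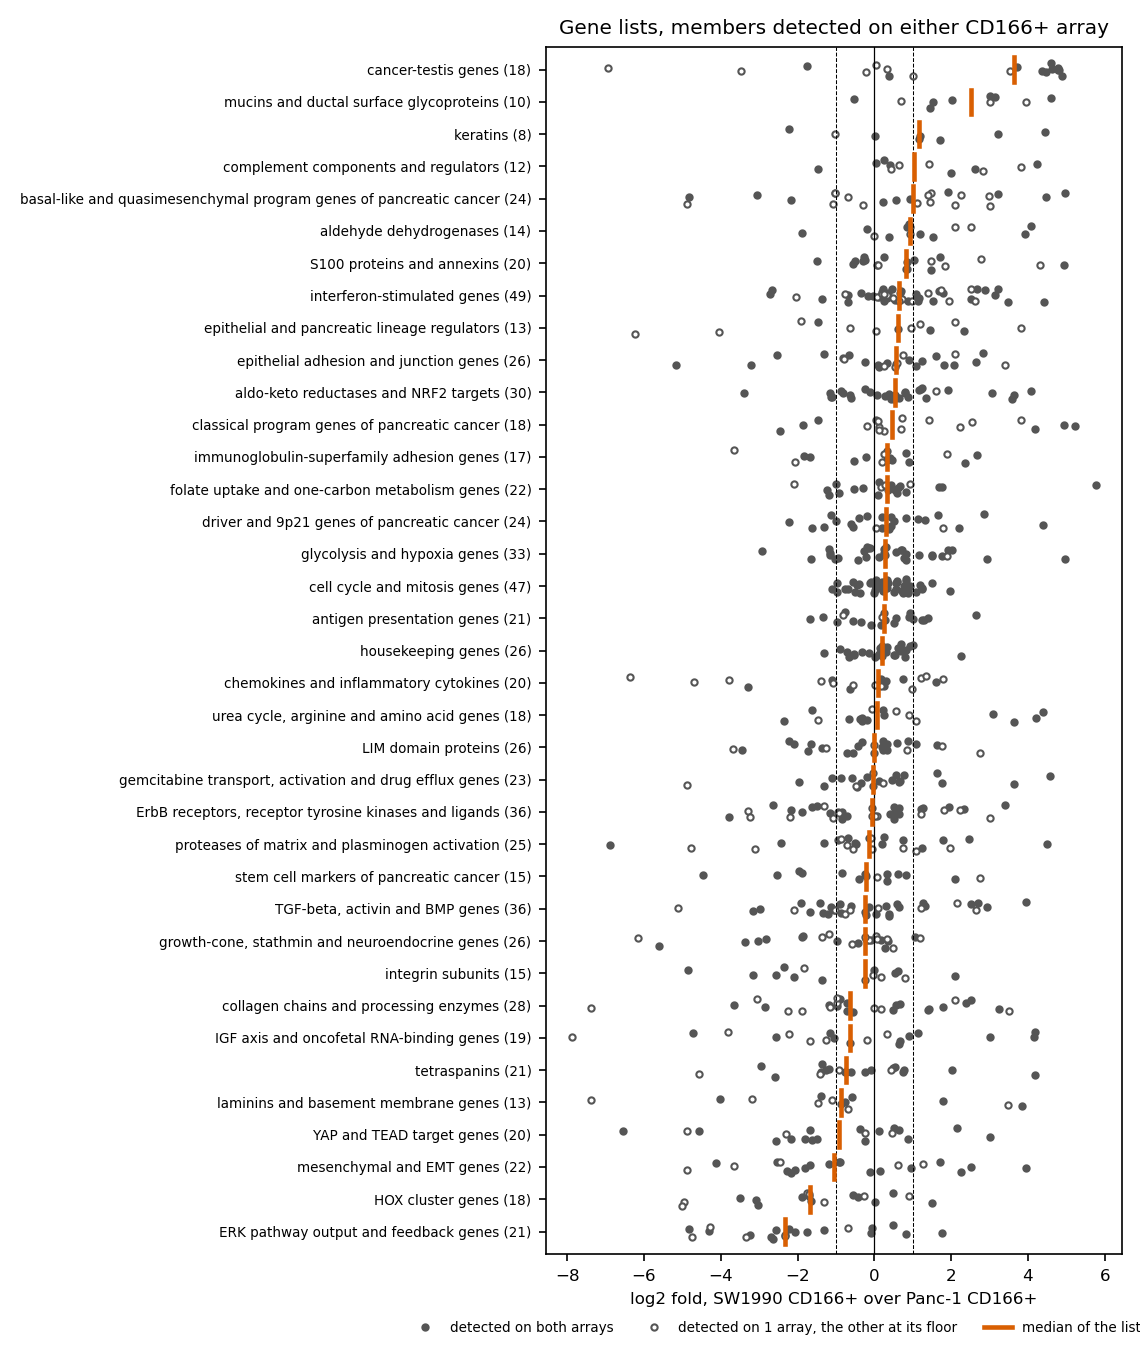
Log2 folds, SW1990 CD166+ over Panc-1 CD166+, of the detected members of 37 gene lists, ordered by the median. Filled points, detected on both arrays. Open points, detected on 1 array with the other at its floor. Orange bars, list medians. Dashed lines, 2-fold. Cancer-testis genes (median 3.63) and mucins (2.52) lie highest and ERK output genes (−2.33) lowest.

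Mesenchymal genes tended to the side of Panc-1 CD166+ cells. Of 33 measured 22 were detected, 5 over 2-fold higher and 11 lower in SW1990 CD166+ cells, and the median log2 fold was −1.06. VIM, vimentin, had 3708 in SW1990 CD166+ cells and 17833 in Panc-1 CD166+ cells. CD44, the hyaluronan receptor, had 1940 and 11324 in the same order. TGFBI, a TGF-beta-induced matrix protein, had 384 and 6700 (17.5-fold lower), and PRRX2 and SPARC were detected in Panc-1 CD166+ cells only. CDH2, the neural cadherin, had 362 in SW1990 CD166+ cells and 690 in Panc-1 CD166+ cells, while ZEB1 and FN1 were not detected in either. The exceptions were FBN2, fibrillin 2, at 635 in SW1990 CD166+ cells and 40.8 in Panc-1 CD166+ cells, ACTA2 (log2 fold 2.51), CALD1 (2.25), TWIST2 (at least 1.28) and S100A4, which was among the strongest signals of the array at 21156 in SW1990 CD166+ cells and 6483 in Panc-1 CD166+ cells.

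Matrix and adhesion genes showed an exchange of subunits. Of 16 measured laminin and basement membrane genes 13 were detected, 3 higher and 6 lower (median −0.86): LAMA1 was detected in SW1990 CD166+ cells only (418, at least 11.2-fold) and LAMB3, a laminin-332 chain, had 970 against 67.2 in Panc-1 CD166+ cells, whereas LAMC3 (43.6 against 709) and LAMB2 (not detected against 353) were lower. Of 38 measured collagen and collagen-processing genes 28 were detected, 8 higher and 8 lower. COL4A6 (428, at least log2 3.52), COL12A1 (3.26) and COL4A5 (2.40) were higher, and COL5A2 (−3.65), PLOD2, a lysyl hydroxylase (−2.86), and COL11A1 (−3.06 or below) were lower. The collagen median of −0.63 rests on undetected chains and was 0.48 over the genes detected on both arrays.

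More integrins were lower than higher in SW1990 CD166+ cells. All 19 subunits were measured and 15 detected, of which 7 were over 2-fold lower and 1 higher (median −0.25). ITGA2, a collagen receptor subunit, had 81.8 in SW1990 CD166+ cells and 2344 in Panc-1 CD166+ cells (28.6-fold lower). ITGB5 had 801 and 7129 in the same order, and ITGB1, the common beta subunit, 2493 and 10671. ITGB4, the hemidesmosomal beta subunit that pairs with ITGA6, was the 1 higher subunit, at 169 and 39.0. Of 35 measured proteases and inhibitors 25 were detected, 6 higher and 5 lower (median −0.13): besides PLAU, ADAM19 (log2 fold −4.77 or below) and CTSD, cathepsin D (−2.44), were lower, while SERPINB5, maspin (4.51), ADAMTS1 (2.46) and PLAUR, the urokinase receptor (1.79), were higher. The receptor and its protease thus lay on opposite sides.

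Of 25 measured tetraspanins 21 were detected, 2 higher and 8 lower (median −0.74). TSPAN8 and TSPAN6 (2.02) were the higher ones. TSPAN5 (−4.58 or below), TSPAN13 (−2.95), TSPAN15 (−2.59) and CD151 (−1.39) were lower. Of 27 measured immunoglobulin-superfamily adhesion genes 17 were detected, 3 higher, among them NECTIN3 (2.67) and CD58 (2.37), and 4 lower, among them CADM1 (−3.67 or below) and ICAM1 (−2.07 or below), with a median of 0.32 equal to that of ALCAM. Of 34 measured LIM domain genes 26 were detected, 4 higher and 8 lower, with MICAL1 at −3.69, FHL2 at −3.44 and LMO1 at 2.74 or more.

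Genes driven by ERK signalling were the list most shifted toward Panc-1. The list holds transcription factors switched on by ERK and the feedback inhibitors that ERK induces. Of 26 measured 21 were detected, 15 over 2-fold lower and 1 higher in SW1990 CD166+ cells, and the median log2 fold was −2.33. Among the transcription factors, FOSL1 had 51.9 in SW1990 CD166+ cells and 1018 in Panc-1 CD166+ cells, and ETV5 was not detected in SW1990 CD166+ cells and had 1057 in Panc-1 CD166+ cells. Among the feedback inhibitors, SPRY4 was not detected in SW1990 CD166+ cells and had 762 in Panc-1 CD166+ cells (at least 19.5-fold lower), SPRY1 and SPRY2 had log2 folds of −3.35 or below and −3.25, and DUSP6, a phosphatase of ERK, had −2.33 or below. CCND1, cyclin D1, had 1012 and 4728 in SW1990 and Panc-1 CD166+ cells. FOS was the 1 higher gene (166 and 48.8, log2 fold 1.77). In CD166- cells the same list had a median of −0.68 with 8 of 21 detected genes lower, and SPRY1, SPRY2, SPRY4 and ETV5 had 722, 1096, 1149 and 671 in SW1990 CD166- cells, so their low level was seen in SW1990 CD166+ and not in SW1990 CD166- cells.

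Receptors and ligands upstream showed no such tilt. Of 52 measured receptor tyrosine kinases and ligands 36 were detected, 9 higher and 12 lower (median −0.06). EGFR had 151 in SW1990 CD166+ and 426 in Panc-1 CD166+ cells (−1.50), HBEGF, an EGFR ligand, had −3.78 and EPHA2 −2.63, while NRG4, a ligand of ERBB4, had 3.40, ERBB3 was detected in SW1990 CD166+ cells only (at least 2.23) and ERBB2 lay within 2-fold at 0.50.

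More targets of YAP and TEAD were lower than higher. YAP is a coactivator that binds TEAD factors and is held back by the Hippo kinases in dense epithelium. Of 24 measured targets 20 were detected, 10 over 2-fold lower and 2 higher in SW1990 CD166+ cells (median −0.93). CCN2, connective tissue growth factor, had 45.3 in SW1990 CD166+ cells and 4230 in Panc-1 CD166+ cells (93.3-fold lower). CCN1 had 330.2 and 7880, and ANKRD1 was not detected in SW1990 CD166+ cells and had 192 in Panc-1 CD166+ cells. The 2 higher genes were IGFBP3 (3.01) and F3, tissue factor (2.15). In CD166- cells CCN2 repeated this difference, at 28.2 (not detected) in SW1990 and 3727 in Panc-1, whereas CCN1 had 5334 and 8948.

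The CCN2 promoter is shown because CCN2 is the most different of these genes and its start-proximal sequence holds several copies of the TEAD motif. In RefSeq promoters (250 bases before to 50 after the start, GRCh38.p14), the motif GGAATG, sought on both strands, occurred in 6 of 13 detected YAP and TEAD targets with a promoter in the table (46.2%), in 10.7% of the 8950 compared genes with a promoter and in 14% of all 27305 promoters. The stretch chr6:131951417-131951586 on the minus strand reads as follows, with the 3 matches in capitals, the first starting 169 bases before the start.
CCN2: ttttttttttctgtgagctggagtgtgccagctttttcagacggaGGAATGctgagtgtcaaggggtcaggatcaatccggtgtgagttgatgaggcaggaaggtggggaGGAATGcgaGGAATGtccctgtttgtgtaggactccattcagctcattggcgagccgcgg

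TGF-beta family genes were split. Of 52 measured 36 were detected, 9 higher and 12 lower (median −0.23). LTBP2, a latent TGF-beta binding protein, had a log2 fold of −5.12 or below, and the activin receptor ACVR1 (−3.16) and SMAD3, a TGF-beta signal transducer (−2.98), were lower too. BMP5 (862 in SW1990 CD166+ and 55.8 in Panc-1 CD166+ cells, 3.95), the co-receptor TGFBR3 (2.93) and FSTL3 (2.71) were higher.

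HOX genes, which record position along the body axis and keep a line-specific pattern in culture, were lower in SW1990 CD166+ cells. Of 29 measured 18 were detected, 11 over 2-fold lower and 1 higher (median −1.66). HOXB8 and HOXB2 were not detected in SW1990 CD166+ cells and had 1264 and 1203 in Panc-1 CD166+ cells. HOXB5 had 290.0 in SW1990 CD166+ cells and 3250.2 in Panc-1 CD166+ cells, and HOXC8 had a log2 fold of −3.03. HOXC11 was the 1 higher gene (1.49). HOXB8 did not distinguish the lines as such, since SW1990 CD166- cells had 2502 and Panc-1 CD166- cells 1151.

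Growth and neuronal genes were split. Of 27 measured IGF-axis and oncofetal genes 19 were detected, 4 higher and 9 lower, with IGF2BP2, an oncofetal RNA-binding protein, at 56.2 in SW1990 CD166+ cells and 1476 in Panc-1 CD166+ cells and IGFBP2 at −3.82 or below, against IGFBP6 (1713 and 94.3, 4.18) and CDKN1C, an imprinted cell cycle inhibitor (939 and 52.5, 4.16), on the other side. The median of −0.64 was 0.66 over the genes detected on both arrays. H19 differed by log2 0.66 only. Of 43 measured growth-cone and neuroendocrine genes 26 were detected, 2 higher and 9 lower (median −0.23): TUBB2B, a neuronal beta-tubulin, was not detected in SW1990 CD166+ cells and had 2789 in Panc-1 CD166+ cells, STMN3 had 79.0 and 3862, and TUBB3 had 721 and 5100. These 3 were high in SW1990 CD166- cells (6768, 12088 and 4137).

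Cancer-testis genes gave the highest list median, 3.63, and it rested on 1 family. Of 42 measured 18 were detected, 11 over 2-fold higher and 3 lower in SW1990 CD166+ cells, and all 11 higher ones were GAGE genes, which lie in a cluster of near-identical copies on chromosome X. GAGE12C had 4540 in SW1990 CD166+ cells and 166 in Panc-1 CD166+ cells, GAGE12H 3210 and 117, and GAGE12F 2238 and 75.7. Signals of single members are uncertain for that reason, and probe sequences were not compared here. Of the 10 GAGE promoters with a RefSeq sequence, 7 were identical to that of GAGE12J over all 300 bases, GAGE12J included. In CD166- cells GAGE12C was not detected in either line (30.7 and 26.7). The lower genes of the list were DDX43 (−3.47 or below), PRAME (272 in SW1990 CD166+ and 918 in Panc-1 CD166+ cells, −1.76) and MAGED1. MAGED1 is on the list as a member of the MAGE family, and its place there does not make it a cancer-testis gene.

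Genes of the tumour-suppressor locus on the short arm of chromosome 9 differed as a group. CDKN2A, which encodes p16 and ARF, had 1754 in SW1990 CD166+ cells and 83.9 in Panc-1 CD166+ cells (20.9-fold). Its neighbour MTAP, a methionine salvage enzyme, had 331 and 45.9, and CDKN2B, which encodes p15, had 129 in SW1990 CD166+ cells and was not detected in Panc-1 CD166+ cells. All 3 were undetected in SW1990 CD166- and in Panc-1 CD166- cells, even at a detection p under 0.05. SW1990 CD166+ was therefore the 1 population with a strong signal from the locus, and SW1990 CD166+ and SW1990 CD166- cells differed there although they bear the same line name. DNA was not measured. Of 28 measured driver genes 24 were detected, 7 higher and 5 lower (median 0.29), with SMARCA4 (2.21), SMARCA2 (1.67) and SMAD4 (1.31) higher and ATM (−1.62), ARID1A (−1.32) and TGFBR2 (−1.14) lower.

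**Figure D3:**
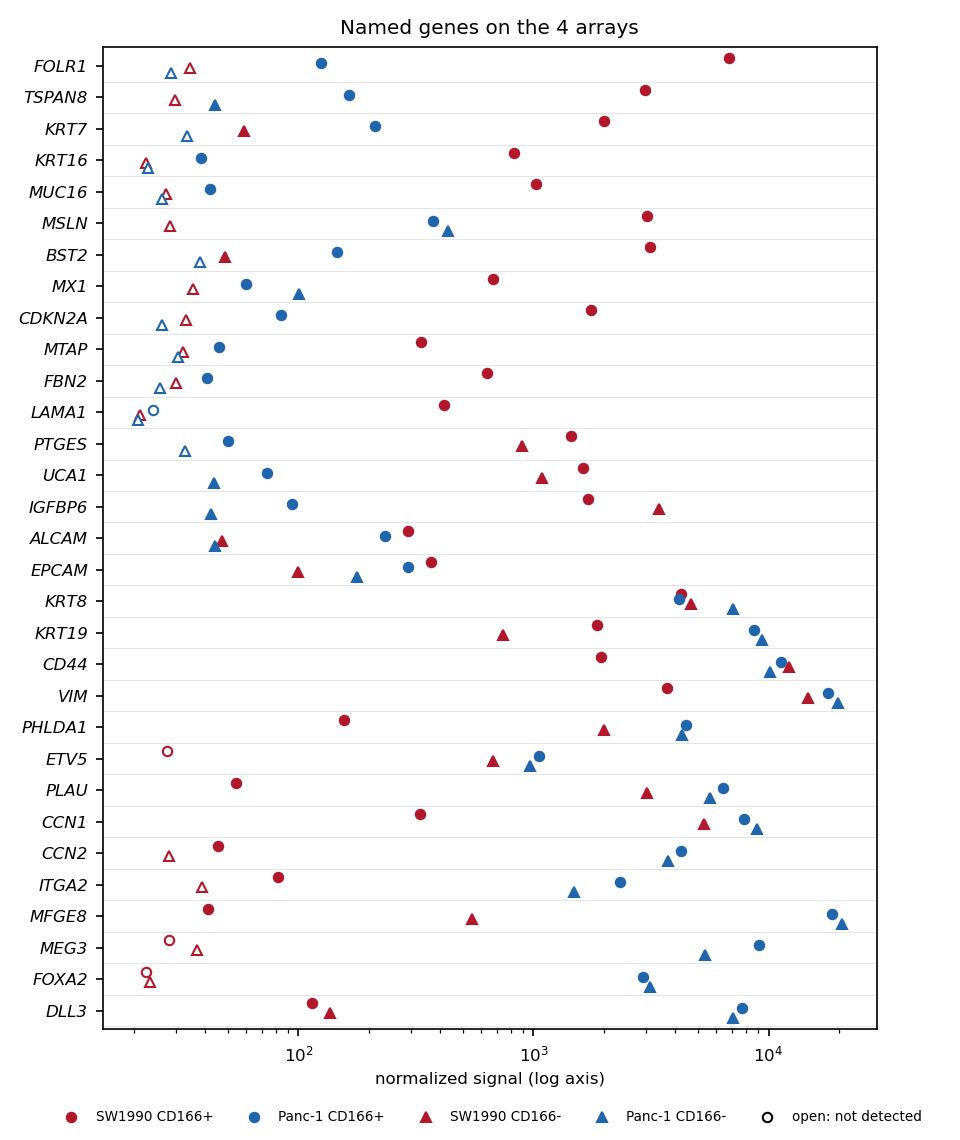
Normalized signals (log axis) of 31 named genes on the 4 arrays, SW1990 in red and Panc-1 in blue, circles for CD166+ and triangles for CD166- cells. Open symbols, not detected. FOLR1 to LAMA1 are highest in SW1990 CD166+ cells, PTGES, UCA1 and IGFBP6 in both SW1990 populations, and MFGE8, CCN2, MEG3, FOXA2 and DLL3 in both Panc-1 populations.

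Interferon-stimulated genes were more often higher than lower in SW1990 CD166+ cells. Type I interferon induces these genes through a promoter sequence called the interferon-stimulated response element. Of 57 measured 49 were detected, 19 over 2-fold higher and 4 lower (median log2 fold 0.64, 0.12 in the scaled table). BST2 had the largest fold (4.43). MX1, an antiviral GTPase, had 669 in SW1990 CD166+ cells and 59.7 in Panc-1 CD166+ cells, IFITM1, a membrane restriction factor, 1832 and 197, IFI30, a lysosomal thiol reductase, with a log2 fold of 3.14, and HERC5, the ligase for ISG15, 526 and 71.7. IRF9 (0.17) and IRF1 (−0.04) were level, and IRF7 (−2.70), UBE2L6 (−2.65), MX2 (−2.05 or below) and TRIM5 (−1.37) were lower. In CD166- cells the balance was turned, with 2 genes higher and 13 lower of 42 detected (median −0.30).

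The response element, searched on both strands as GAAA followed after any 2 bases by a second GAAA, was found in 28 of 42 detected interferon-stimulated genes with a promoter in the RefSeq table (66.7%), in 2.68% of the compared genes with a promoter and in 3.65% of all 27305 promoters. It was found in 2.77% of promoters of genes over 2-fold higher in SW1990 CD166+ cells and in 2.12% of those over 2-fold lower. Its presence on the list thus says nothing about the difference between the lines. Members that were level or lower, such as ISG15 (log2 fold −0.17) and TRIM5, hold it too. Of the 28 promoters, 3 are shown, all of genes higher in SW1990 CD166+ cells, in GRCh38.p14, with the matches in capitals. They are BST2 at chr19:17405700-17405805 on the minus strand and, on the plus strand, HERC5 at chr4:88456949-88457099 and IFIT3 at chr10:89327796-89327929. In the last 2 the motif reads on the opposite strand, as TTTC, any 2 bases and TTTC. BST2 and HERC5 hold overlapping copies in a run, and IFIT3 holds 2 separate ones. IFIT3 itself, chosen for its sequence after its values were seen, had a signal of 120.5 in SW1990 CD166+ and 37.4 in Panc-1 CD166+ cells.
BST2: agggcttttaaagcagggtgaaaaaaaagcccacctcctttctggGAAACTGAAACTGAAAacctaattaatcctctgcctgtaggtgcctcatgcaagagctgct
HERC5: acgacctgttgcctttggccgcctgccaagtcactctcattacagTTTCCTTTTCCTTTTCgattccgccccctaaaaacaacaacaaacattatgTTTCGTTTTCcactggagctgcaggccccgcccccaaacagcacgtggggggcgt
IFIT3: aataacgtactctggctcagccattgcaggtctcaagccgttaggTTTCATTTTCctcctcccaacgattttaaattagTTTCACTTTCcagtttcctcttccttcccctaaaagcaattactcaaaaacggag

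Antigen presentation followed in part. Of 30 measured genes 21 were detected, 5 higher and 2 lower (median 0.26). PSMB8, an immunoproteasome subunit, had 1392 in SW1990 CD166+ cells and 222 in Panc-1 CD166+ cells (2.65), and HLA-B (1.39), HLA-DMA (1.29), PSME1 (1.24) and HLA-C (1.01) were the other higher genes. TAP2, a subunit of the peptide transporter, and ERAP2, a peptide-trimming protease, were lower (−1.68 and −1.34). Of 25 measured complement genes 12 were detected, 6 higher and 1 lower (median 1.03), with C4BPB at 4054 in SW1990 CD166+ and 214 in Panc-1 CD166+ cells, CFB detected in SW1990 CD166+ cells only (532) and CD59 lower (−1.48). Of 34 measured chemokines and cytokines 20 were detected, 4 higher and 7 lower (median 0.09). CCL2, the monocyte chemokine, was not detected in SW1990 CD166+ cells and had 3222 in Panc-1 CD166+ cells, and CX3CL1, CXCL8 and CXCL1 were lower too, while CXCL5 (at least 1.79) and CXCL16 (1.62) were higher.

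S100 proteins and annexins, calcium-binding proteins often raised in pancreatic carcinoma, were more often higher than lower in SW1990 CD166+ cells. Of 29 measured 20 were detected, 8 higher and 1 lower (median 0.84), with S100P, S100A4, ANXA3 and ANXA8 (at least 2.79) higher and S100A3 (−1.48) lower.

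Detoxifying and metabolic enzymes leaned to SW1990 CD166+ cells. Of 36 measured aldo-keto reductases and NRF2 targets 30 were detected, 10 higher and 4 lower (median 0.53). ALDH3A1 had 709 in SW1990 CD166+ and 41.6 in Panc-1 CD166+ cells, ABCC2, a conjugate exporter, 531 and 42.7, and AKR1C3, which reduces ketosteroids and shares much sequence with its AKR1C neighbours, 5283 and 441. HMOX1, heme oxygenase, was lower (52.7 and 555, −3.40). Of 19 measured aldehyde dehydrogenases 14 were detected, 6 higher, ALDH3B1 (3.93) and ALDH6A1 (at least 2.53) among them, and only ALDH1A3 (−1.89) lower (median 0.93). Of 22 measured urea cycle and amino acid genes 18 were detected, 5 higher and 3 lower (median 0.08): the arginine transporter SLC7A2 (846 and 40.5), CPS1, which makes carbamoyl phosphate (3165 and 170.2), GCHFR (3564 and 286) and ASS1, argininosuccinate synthase (2962 and 347), were higher, and ASNS, asparagine synthetase, was lower (1026 and 5262).

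Of 25 measured folate and one-carbon genes 22 were detected, 3 higher and 4 lower (median 0.32). Apart from FOLR1 the higher ones were SHMT1 (1.77) and MTRR (1.69), and the carrier SLC19A1 was level (0.13). Of 35 measured glycolysis and hypoxia genes 33 were detected, 9 higher and 6 lower (median 0.28), with an exchange of hexokinases, HK2 at 1.92 and HK1 at −2.91. Of 27 measured genes of gemcitabine handling 23 were detected, 4 higher and 4 lower (median −0.02). CDA, ABCC2, SLFN11 (1.75) and the nucleoside transporter SLC29A2 (1.64) were higher, and RRM2, a gemcitabine target, was lower (−1.10). Of 10 measured metallothioneins 6 were detected, 0 higher and 2 lower (median −0.41), MT1G (−3.45) and MT2A (−1.81).

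Of 22 measured stem cell markers 15 were detected, 2 higher and 4 lower (median −0.22). CXCR4 was detected in SW1990 CD166+ cells only (254, at least 2.76) and ITGB4 was the other higher one. NES, nestin (76.5 and 1697, −4.47), CD44 (−2.55), CD24 (−1.96) and ALDH1A3 were lower. CD24 and CD44, often used together to sort pancreatic cancer stem cells, were thus both higher in Panc-1 CD166+ cells.

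Genes that every cell uses differed less. Of 48 measured cell cycle genes 47 were detected, 6 higher and 1 lower (median 0.28), the largest being GINS2 (1.96), CDT1 (1.51) and CDC25A (1.25), and AURKA, KIF23 and MCM3 lay within 0.03 of equality. All 26 measured housekeeping genes were detected, 2 higher, RPL13A (8176 and 1706, 2.26) and SDHA (1.01), and 1 lower, TBP (−1.30), with a median of 0.21, which was 0.76 after median scaling. Most markers of other cell types were not detected in the sorted cells. Of 20 fibroblast and stellate cell markers 4 were detected in SW1990 CD166+ and 5 in Panc-1 CD166+ cells (summed signals 3843 and 1248). MFAP5 had 2761 in SW1990 CD166+ cells, most of the sum there, and 171 in Panc-1 CD166+ cells. DCN, LUM, PDGFRA and COL3A1 were among those detected in neither. Detected in both were ACTA2, COL1A1 and MFAP5, in SW1990 CD166+ cells only PDGFRB, and in Panc-1 CD166+ cells only CTHRC1 and THY1. Of these 6 genes detected on either array 3 were over 2-fold higher and 1 lower (median 0.42). Of 23 leukocyte and endothelial markers 4 were detected in each (summed signals 1079 and 1880), with PTPRC, CD3D and CDH5 undetected in both, 0 higher and CD68 lower (−1.64, median −0.27). Of 21 acinar and islet markers 0 were detected in SW1990 CD166+ and 1, CEL, in Panc-1 CD166+ cells (summed signals 522 and 561), with 0 over 2-fold apart (median −0.11). In sorted bulk cells, fewer cells that express a gene and less RNA per cell cannot be told apart.

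The CD166- pair, labelled as the same lines, was set beside the CD166+ pair to see which differences were found in both. Since the array labelled SW1990 CD166- was closer to Panc-1 than to SW1990 CD166+, and CDKN2A, MTAP and CDKN2B were detected in SW1990 CD166+ and in no CD166- population, a gene seen in 1 pair only is a difference between libraries carrying the same line label, and whether each label is right was not tested. Between SW1990 CD166- and Panc-1 CD166- cells, 1132 of 10694 genes were over 2-fold higher (10.6%) and 1299 lower (12.1%). Of the genes higher in SW1990 CD166+ cells 340 were also higher in SW1990 CD166- cells, which is 23.8% of the CD166+ list and 30.0% of the CD166- list. Of the lower genes 643 were lower in both, 40.8% of the CD166+ list and 49.5% of the CD166- list. Opposite directions were taken by 78 genes higher and 62 genes lower in SW1990 CD166+ cells. Over 8114 genes detected on all 4 arrays, the folds of the 2 pairs correlated with r = 0.424 across genes, as a description. Of the 1429 genes higher in SW1990 CD166+ cells, 1025 were detected in SW1990 CD166- cells and 395 were not detected in Panc-1 CD166- cells.

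The genes with large folds in the same direction in both pairs are the following. Higher in SW1990 were PTGES (log2 fold 4.85 in CD166+ and 4.52 in CD166- cells), UCA1 (4.46 and 4.64), IGFBP6 (4.18 and 6.33), LTBR, the lymphotoxin beta receptor (4.10 and 5.70), TRIP6 (4.09 and 5.66), MGST1, a microsomal glutathione transferase (3.78 and 4.83), ABCC2 (3.64 and 3.63) and RAB17 (3.48 and 5.17). Lower in SW1990, with both SW1990 populations at or near the detection limit, were MEG3, PPP1R14A, CCN2, FOXA2, CD70, CCL2, PLCH2 and DKK3, each by at least 66.8-fold in CD166+ cells. PPP1R14A, an inhibitor of myosin phosphatase, is an example, at 46.3 and 33.6 in SW1990 CD166+ and CD166- cells and 4565 and 4268 in Panc-1 CD166+ and CD166- cells.

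Others were low in SW1990 CD166+ cells alone. PLAU had 54.4 in SW1990 CD166+ but 3033 in SW1990 CD166- cells and 5645 in Panc-1 CD166- cells. CMTM7 (47.1 and 4522), IGF2BP2 (56.2 and 1203), MLPH (26.5 and 1912) and TUBB2B showed the same pattern in SW1990 CD166+ and CD166- cells. For these genes the gap between the lines in CD166+ cells is a gap between SW1990 CD166+ cells and the other 3 populations.

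**Figure D4:**
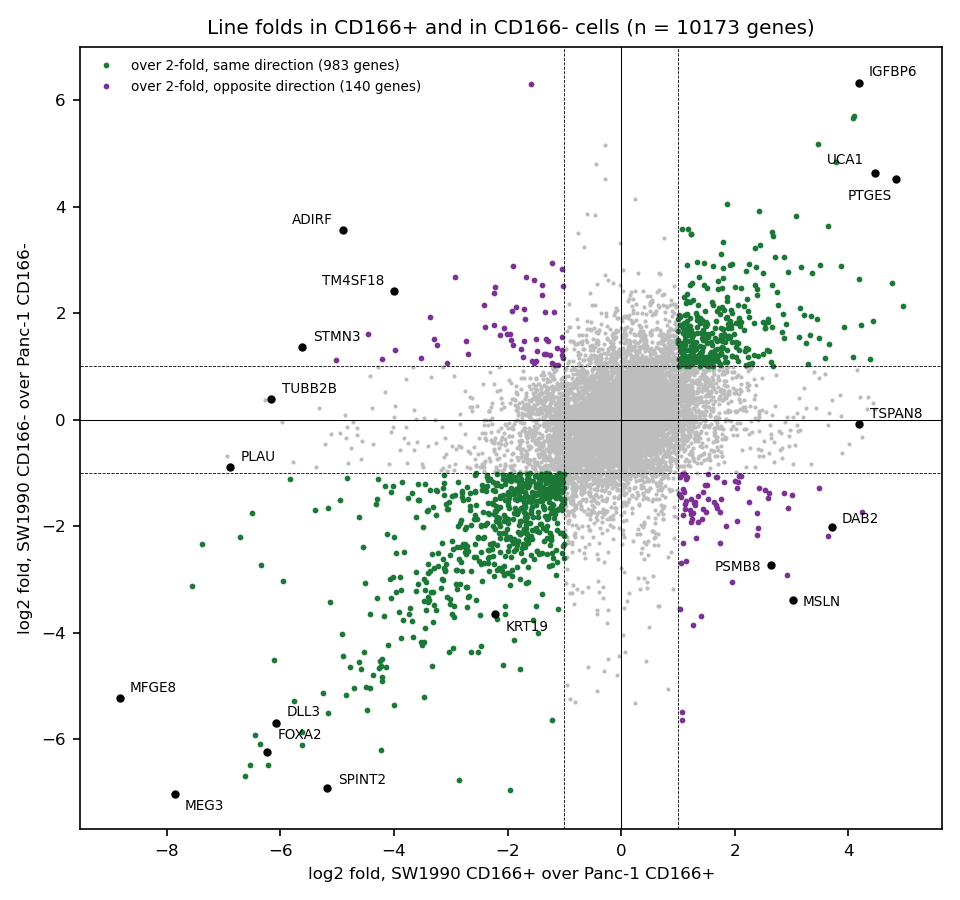
Log2 folds of SW1990 over Panc-1 in CD166+ cells (horizontal) and in CD166- cells (vertical), each point 1 of 10173 genes detected in both pairs. Green, past 2-fold in both pairs with the same sign. Purple, over 2-fold in opposite directions. MEG3, FOXA2 and SPINT2 lie low in both pairs, IGFBP6, UCA1 and PTGES high in both, and MSLN and ADIRF on opposite sides.

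The differences were uneven along the genome. By chromosome, the share of genes over 2-fold higher in SW1990 CD166+ cells was 24.5% on chromosome 9 (9.33% lower), 22.1% on chromosome 18 (9.74% lower), 21.5% on chromosomes 8 and 21 (9.85% and 10.7% lower) and 19.9% on chromosome 14 (6.09% lower). It was 6.33% on chromosome 20 (16.5% lower), 6.68% on chromosome 7 (17.9% lower), 7.77% on chromosome 2 (17.3% lower), 8.79% on chromosome 22 (15% lower) and 8.89% on chromosome 11 (21.5% lower). In 10782 windows of 15 neighbouring detected genes, ordered as in RefSeq, the median window held 2 genes higher and 2 lower, 0.454% held 10 or more lower and 0.158% held 10 or more higher.

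The most shifted stretch lay on chromosome 19 between RYR1 and PSMC4 and was picked out after its values were seen. Of 33 detected genes there 27 were over 2-fold lower in SW1990 CD166+ cells and 0 higher (median −2.41), whereas of the other 741 detected genes of the chromosome 13.8% were lower and 16.6% higher. These other genes include flanks that were shifted too. Across the first end, from ZNF573 to CAPN12, 11 of 15 neighbours were lower (median −2.34), and SPINT2 and PPP1R14A lie in that window. Across the far end, from EID2B to BLVRB, 10 of 15 were lower and 2 higher (median −1.65). In CD166- cells 26 of the 33 were lower in SW1990, 0 were higher and the median was −2.46. It holds genes of varied function. PAF1, a subunit of the elongation complex of that name, had 1146 in SW1990 CD166+ cells and 13245 in Panc-1 CD166+ cells. PSMC4, a proteasome ATPase, had 995 and 11271, SUPT5H, an elongation factor, 372 and 4056, ACTN4, an actin crosslinker, 617 and 4970, and ZFP36, an mRNA decay factor, 264 and 5060. DLL3, named above, and PLEKHG2 (49.3-fold lower) belong to it. RPS16, a ribosomal protein gene with the highest signals of the stretch, differed little (log2 fold −0.27). Whether the lines differ in copy number there was not measured.

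**Figure D5:**
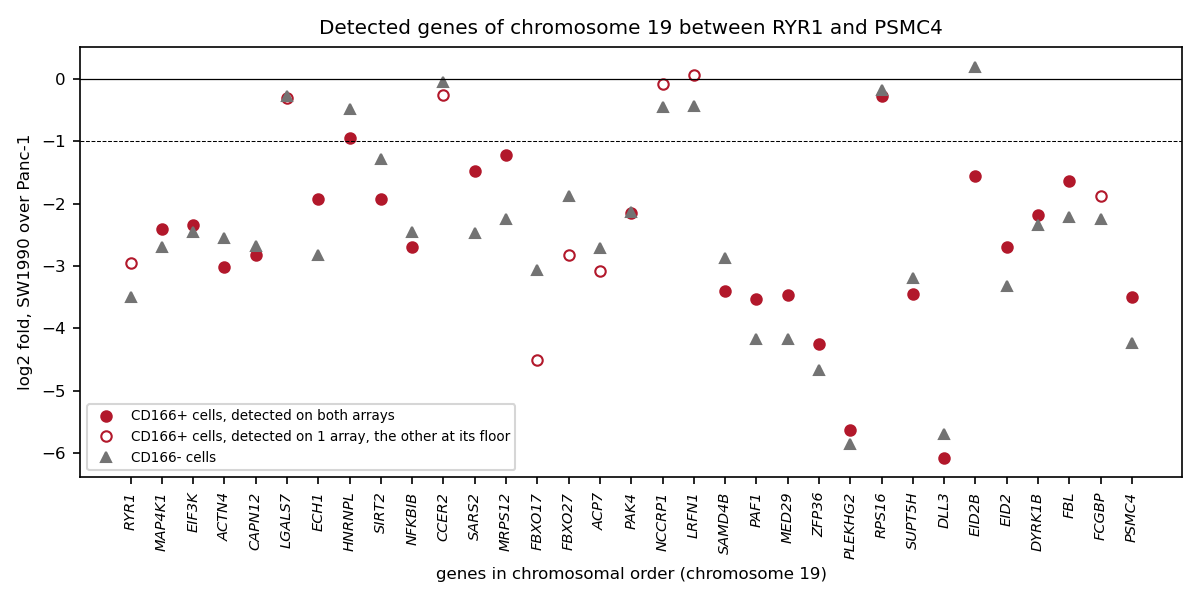
Log2 folds of SW1990 over Panc-1 for the 33 detected genes of chromosome 19 between RYR1 and PSMC4, in chromosomal order. Circles, CD166+ cells, open where 1 array is at its floor. Triangles, CD166- cells. Dashed line, 2-fold lower. The 27 genes under the dashed line in CD166+ cells run through the stretch, and 26 lie under it in CD166- cells.

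Shorter runs were seen elsewhere. On chromosome 9, 11 of 15 neighbours from GLE1 to SH3GLB2 were higher in SW1990 CD166+ cells (median log2 fold 1.19), with 5 of the 15 higher in CD166- cells. On chromosome 8, 10 of 15 from EPHX2 to RBPMS were higher (median 1.47), with 11 higher in CD166- cells. On chromosome 1, 10 of 15 from ADGRL2 to CCN1 were lower (median −1.26), with 11 lower in CD166- cells, and on chromosome 16, 10 of 15 from NOMO1 to SMG1 were lower (median −1.30), with 8 lower in CD166- cells. Other runs recurred less or not at all in CD166- cells. On chromosome X, 10 of 15 from WDR45 to GAGE12H were higher, most of them GAGE genes, with 0 higher in CD166- cells, on chromosome 19, 10 of 15 from ANO8 to MPV17L2 were higher, with 4 higher in CD166- cells, and on chromosome 11, 10 of 15 from PHRF1 to CRACR2B were lower, with 6 lower in CD166- cells. BST2 and IFI30 of the interferon list lie in the run from ANO8 to MPV17L2, and IRF7 in that from PHRF1 to CRACR2B. These windows too were chosen for their values.

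Promoter composition differed at the extremes. The CpG ratio of a promoter, observed over that given by its base content, was under 0.4 in 40% of 85 promoters of genes over 10-fold higher in SW1990 CD166+ cells, in 13.6% of 125 promoters of genes over 10-fold lower and in 10.2% of the 8950 compared genes with a promoter. A TATAAA motif on either strand was found in 18.8%, 5.60% and 5.75% of the same promoters. Over the genes more than 2-fold apart the contrast was small, with a CpG ratio under 0.4 in 14.6% of the higher and 10.9% of the lower genes.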

How the data were processed

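Per the sources of the study, array scans were read out in BeadStudio, and the authors deposited, for 47315 probes on each of 4 arrays, the mean bead intensity without normalization and its detection p-value, besides a second table of intensity values scaled to a common mean. Background correction from the detection p-values, an offset of 16 and quantile normalization over the 4 arrays were applied with neqc in limma 3.58.1 (R 4.3.3). Of the probes, 30111 carried the name of 1 gene, 8 of several genes and 17196 of no gene in the platform's annotation. Symbols were updated through the Entrez numbers of RefSeq (GRCh38.p14), 27 of which had no entry there. The probe with the highest mean signal stood for its gene. The genes compared and the gene lists were chosen with earlier results of these data known. Named genes are the markers and the genes the study followed up, the 15 largest folds and bounds in each direction, up to 5 members of each list per direction and 3 with the smallest fold, and the genes most alike or opposite in both pairs. MUC13, EGFR, VIM, CDH2, SPRY2, DUSP6, SMAD4, IFIT3, CEL and the genes of the chromosomal runs, other than those with the largest folds, were named after their values were seen. The 13 alternatives changed the background correction, offset, scaling, detection threshold, probe rule, floor and fold threshold, or subtracted the share of SW1990 CD166+ signal described above. The normalization, the folds of single probes and the 2-fold calls were checked on simulated arrays. The annotation, probe choice, gene lists, chromosomal windows, promoter counts and alternatives were not.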

Additional observations from a re-analysis of the deposited data

Results flagged for a closer look

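Of the 431 named genes, 34 differed over 2-fold between the lines in both sorts, but with opposite signs. Some were named for being opposite, so this count gives no share over genes. Of all 1429 genes higher in SW1990 CD166+ cells, 78 were lower in SW1990 in the CD166- pair. Of all 1577 lower genes, 62 were higher there. Over all genes of the CD166- pair, 12.1% were lower and 10.6% higher in SW1990. The difference between the pairs was not tested, with 1 array in each population. Higher in SW1990 in CD166+ cells and lower in CD166- cells were 21 of the named genes. They are given here as log2 folds of SW1990 over Panc-1 in CD166+ and then CD166- cells. Many of the CD166- values, such as that of MSLN, and several of the CD166+ values, such as that of ADIRF, are bounds, with 1 side not detected. Among signalling, surface and secreted proteins these were DAB2 (3.71 and −2.02), MSLN (3.02 and −3.38), IGFBP3 (3.01 and −1.41), NDRG1 (2.93 and −1.66), EFEMP1 (2.92 and −2.91), CD55 (2.01 and −1.15) and LGALS3BP (1.54 and −1.01). Among interferon and antigen presentation genes they were MX1 (3.49 and −1.28), HERC5 (2.88 and −1.37), PSMB8 (2.65 and −2.73) and HLA-C (1.01 and −1.40). Among structural genes they were COL4A5 (2.40 and −1.74), DSG2 (2.08 and −1.05), PALLD (1.95 and −3.06), KRT10 (1.16 and −1.08), CRIP1 (1.07 and −5.63) and BASP1 (1.07 and −5.50). The others were GCHFR (3.64 and −2.19), SFN (2.41 and −2.03), TFAP2C (2.40 and −2.16) and SMARCA2 (1.67 and −1.08).

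Lower in SW1990 in CD166+ cells and higher in CD166- cells were 13 of the named genes. Those of neuronal or developmental use were STMN3 (−5.61 and 1.37), HOXB8 (−5.02 and 1.12), VGF (−3.36 and 1.92), JAG1 (−2.92 and 2.67) and PRDM8 (−2.22 and 2.48). The others were ADIRF (−4.90 and 3.56), TM4SF18 (−3.99 and 2.41), CXCL1 (−3.30 and 1.52), ADGRG6 (−2.41 and 2.15), COL13A1 (−2.25 and 2.37), IGFBP4 (−2.23 and 1.77), NMT2 (−1.92 and 2.05) and NOS3 (−1.47 and 1.30).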

How the results depend on the processing

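The count of genes over 2-fold higher in SW1990 CD166+ cells (1429) was 932 with no background correction, 2180 after median scaling and 756 in the authors' scaled table. At over 1.5-fold 2618 genes were higher and 2677 lower, and at over 3-fold 630 and 773. Under the other 8 alternatives both counts stayed within 1.5 times, and the shares also seen in CD166- cells did so under all 13. Of the list medians above the SD between probes of a gene (0.42), those of the junction, lineage regulator, classical and fibroblast lists turned to −0.050, −0.022, −0.030 and −0.048 in the scaled table, the fibroblast list also to −0.0017 with no filter, and the collagen and IGF lists to 0.48 and 0.66 over genes detected on both arrays. Of the named genes over 2-fold apart, the mean over probes turned LAD1 to −0.083 and MAPT to −0.075. A turn of sign was counted only for named genes over 2-fold apart, and no other was found among them. Of the other recomputed folds of named genes, 3668 moved by less than that SD and 952 by more. These include genes within 2-fold, whose turns of sign were not counted. No paired analysis was possible because each population has 1 array and the labels carry no replicate numbers, and for the same reason no array could be left out. With 1 array a side the precision is limited by their number, and signals near the floor give bounds only.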
